A study of Mus musculus with 3 samples.

Results

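Mouse NIH/3T3 fibroblasts that had grown for 14 days without 5aza-dC were compared with cells of the same line at the end of a 3-day exposure to the drug. The comparison uses 2 of the 3 samples of the study. In the recovery group, cells were given 5aza-dC at 1 uM, renewed each day, and then kept without the drug. In the 5aza-dC group, cells were taken after the same exposure. Recovery cells thus also had 14 more days in culture, and absence of the drug and time in culture cannot be told apart. The mock group, which was mock treated, serves here as a level to set both against, and the sample labels used give no harvest time for it. All 3 groups were NIH/3T3, 1 established fibroblast line grown in medium with foetal calf serum, so the values describe that line and not fibroblasts in general. RNA was hybridised to Illumina bead arrays, and 19057 named genes were measured, of which 8984 were detected in at least 1 group.

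5aza-dC (decitabine) is a cytidine analog that is built into replicating DNA, where it traps DNA methyltransferases, so that daughter strands lose methylation as cells divide. When the drug is gone, the maintenance methyltransferase can copy only the methylation that is left, and de novo enzymes have to write the rest again. Loss of methylation is known to let germ cell genes, imprinted genes and endogenous retroviruses be transcribed, and double-stranded RNA from such elements can set off the interferon response. Interferons signal through JAK kinases, STAT proteins and IRF9 to genes whose promoters carry an interferon response element. Those genes code for sensors, antiviral enzymes, interferon-inducible GTPases, chemokines and the machinery of class I antigen presentation.

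Each deposited column is the mean of 2 arrays, and the levels on both arrays were computed back from the deposited tables. Levels below are log2 normalized intensities of single arrays, and differences are limma log2 differences of recovery minus 5aza-dC ± SE with 2 arrays per group. A gene rose or fell here where it passed limma at a Benjamini-Hochberg adjusted p below 0.05, and it was called where it also differed at least 2-fold and was detected in the brighter group. The study describes duplicate experiments, but no source tells if each array was hybridised with RNA of its own experiment or with the same RNA again, and p-values here reflect nothing beyond the differences between both arrays. If a gene was detected on no array of its dimmer group, the fold is given as a bound. It was computed against the lowest level of any detected probe on each array, or the gene's own level where that was higher. Calls and all counts by fold use the limma difference for such genes too, so they include genes whose bound is under 2-fold. Median deposited signal was 61.1 in recovery, 61.2 in 5aza-dC and 63.8 in mock, and 14070, 15105 and 14465 of 45281 probes were detected in these groups. Arrays of a pair correlated at 0.9968 in recovery and 0.9976 in 5aza-dC, against 0.9844 to 0.9851 between recovery and 5aza-dC. The fibroblast label was borne out by detection of its markers, since 10 of 10 fibroblast markers were detected in every group, with a summed signal of 18856 in recovery, 14406 in 5aza-dC and 19924 in mock. Vim alone gave 11280, 8446 and 11275 of these sums, so they mostly follow Vim. Col1a2 (76.3, 74.7 and 94.6) and Col3a1 (74.0, 76.4 and 81.1) were dim in the same groups. Markers of blood cells (0 of 4), skeletal muscle (0 of 3) and neurons or glia (0 of 3) were detected in no group. Of 5 epithelial markers, 1 was detected in recovery, 3 in 5aza-dC and 1 in mock. Of 3 endothelial markers, 0 were detected in recovery, 1 in 5aza-dC and 0 in mock.

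The promoter stretches below belong to genes picked for display, and a gene is shown only where its promoter window held the marked letters before the start. Usp18, Mx2 and Cmpk2 were looked up for the first set, and Piwil2 for the third, and gave no such stretch. That can mean a window without the letters or that no window was found for the gene. The first set holds genes of the interferon response that fell in recovery, and capitals mark the core of the interferon response element, which is GAAA, any 2 bases and GAAA again, on either strand. Overlapping copies are run together. All sequences are RefSeq promoter windows of the mouse build GRCm38.p6, read 5′ to 3′ in the direction of the gene.
Rsad2, chr12:26456528-26456607, minus strand: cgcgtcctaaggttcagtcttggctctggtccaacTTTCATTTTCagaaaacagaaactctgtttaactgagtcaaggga
Ifit3, chr19:34583338-34583451, plus strand: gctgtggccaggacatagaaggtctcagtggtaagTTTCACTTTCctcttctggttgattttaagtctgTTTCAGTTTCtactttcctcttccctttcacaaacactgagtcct
Isg15, chr4:156200840-156200931, minus strand: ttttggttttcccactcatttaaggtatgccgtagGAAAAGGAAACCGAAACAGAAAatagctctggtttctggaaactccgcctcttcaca
Cxcl10, chr5:92349058-92349137, minus strand: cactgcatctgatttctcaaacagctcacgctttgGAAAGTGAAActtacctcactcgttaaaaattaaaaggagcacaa
Oas1g, chr5:120887614-120887666, minus strand: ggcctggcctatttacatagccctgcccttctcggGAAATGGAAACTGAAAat
Irgm2, chr11:58214878-58214957, plus strand: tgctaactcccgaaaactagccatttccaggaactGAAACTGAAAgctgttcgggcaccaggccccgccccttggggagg
Igtp, chr11:58199487-58199555, plus strand: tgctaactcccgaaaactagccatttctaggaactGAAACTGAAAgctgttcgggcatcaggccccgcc

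The second set holds genes of the contractile programme that rose in recovery, and capitals mark the CArG box, the sequence bound by serum response factor. Actg2, Tagln, Acta2, Ccn1 and Egr3 were looked up as well and gave no such stretch, which can again mean that no window was found.
Myl9, chr2:156775268-156775347, plus strand: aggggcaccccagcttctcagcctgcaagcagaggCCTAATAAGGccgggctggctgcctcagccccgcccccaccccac
Srf, chr17:46556180-46556279, minus strand: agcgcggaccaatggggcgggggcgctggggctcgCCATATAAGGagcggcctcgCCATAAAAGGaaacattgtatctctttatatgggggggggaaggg

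The third set holds germ cell genes and a keratin gene, of which Tex19.1 and Krt8 fell, Rhox5 rose and Dazl did not pass limma, and capitals mark CpG, the dinucleotide that carries methylation in mammals. Methylation itself was not measured on these arrays.
Tex19.1, chr11:121145943-121146142, plus strand: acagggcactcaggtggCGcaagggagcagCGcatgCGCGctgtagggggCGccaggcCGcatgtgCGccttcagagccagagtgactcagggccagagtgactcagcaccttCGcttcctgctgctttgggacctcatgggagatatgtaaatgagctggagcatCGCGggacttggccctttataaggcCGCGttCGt
Rhox5, chrX:37754408-37754607, plus strand: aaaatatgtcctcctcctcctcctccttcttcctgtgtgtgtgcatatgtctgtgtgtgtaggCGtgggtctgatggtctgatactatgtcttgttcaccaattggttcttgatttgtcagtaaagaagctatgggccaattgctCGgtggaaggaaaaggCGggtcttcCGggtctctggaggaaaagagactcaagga
Dazl, chr17:50293621-50293820, minus strand: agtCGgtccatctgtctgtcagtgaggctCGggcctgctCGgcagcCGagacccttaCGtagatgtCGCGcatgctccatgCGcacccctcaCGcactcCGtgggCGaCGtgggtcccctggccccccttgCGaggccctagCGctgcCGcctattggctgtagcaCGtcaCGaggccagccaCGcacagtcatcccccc
Krt8, chr15:102004343-102004542, minus strand: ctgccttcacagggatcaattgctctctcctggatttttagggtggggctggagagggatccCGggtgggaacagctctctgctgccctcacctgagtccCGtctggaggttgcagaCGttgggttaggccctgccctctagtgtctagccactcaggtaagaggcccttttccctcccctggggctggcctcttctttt

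The comparison asks what changed in the cells between the end of exposure and the end of the drug-free period. Most detected genes of the interferon response, class I antigen presentation, chemokines and keratins and some germ cell genes were lower in recovery, and most smooth muscle contractile genes and some matrix genes were higher. By limma alone 1953 genes rose (21.7% of those tested) and 1887 fell (21.0%), or 42.7% in either direction. Of these, 78 were called higher (0.868%) and 392 called lower (4.36%), so that 16.6% of the called genes were higher. List counts below are to be read beside these shares, and a count near them says nothing particular about its list. Putting all arrays on a common median, in place of quantile normalization, gave 28 called higher and 488 called lower, or 5.43% higher, with a median over all genes of -0.15, next to 0.02 in the values used here. The median was that of all probes, of which 31.1% were detected in recovery, 33.4% in 5aza-dC and 31.9% in mock. It thus lay at undetected signal, and that scaling does not align the brightness of detected genes. On that scale the SE was 0.34 for every gene and the smallest difference that passed limma was 1.03, so that all 516 genes that passed limma (28 higher and 488 lower) were also called, where 3840 passed in the values used here. Differences of at least 4-fold were seen for 2 genes that were higher, Actg2 and Srpx2, and for 91 that were lower. Differences of at least 8-fold were seen for 1 and 31. In all 470 called genes the levels of both recovery arrays lay outside those of both 5aza-dC arrays, which choosing genes by a 2-fold difference on the same arrays largely fixes. In 139 of the genes called lower the deposited recovery column did not detect the gene, and 115 of the differences are bounds. Of all 8984 genes, 755 were detected in 5aza-dC and not in recovery, so the detection filter left them little room for a rise. The same holds for such members of the lists below, and counts of falls include them. In bulk RNA, fewer cells that express a gene and less RNA per cell cannot be told apart. Against mock, 40.7% of the genes passed limma in recovery and 57.2% in 5aza-dC, with median differences of 0.03 and 0.01. Recovery and 5aza-dC share the mock arrays in those comparisons, and recovery minus 5aza-dC shares arrays with both. Values against mock are therefore set beside the others as levels. Where a limma result against mock is given, it is not independent of the other comparisons.

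**Figure D1:**
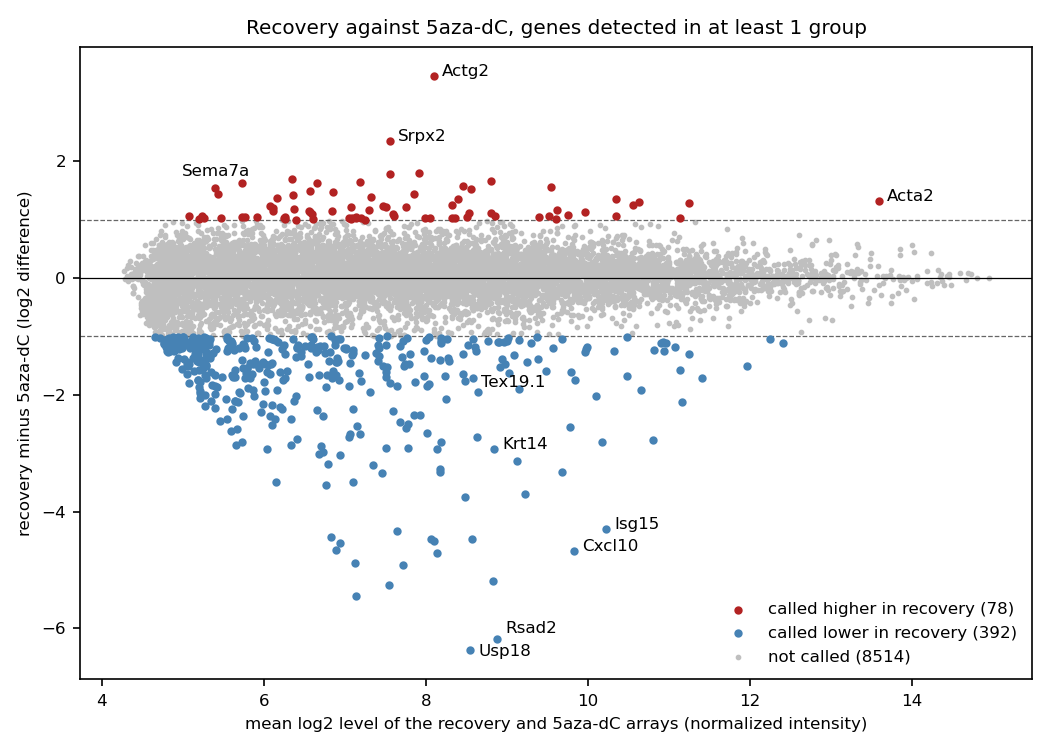
Log2 difference of recovery minus 5aza-dC against the mean log2 level of both groups for 8984 detected genes, with genes called higher in red (78), called lower in blue (392) and all others in grey, and dashed lines at a 2-fold difference. The blue points reach -6.38 (Usp18), and the red points end with Srpx2 at 2.35 and Actg2 at 3.47.

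The 15 largest falls among named genes were nearly all of antiviral genes, 13 of them members of the lists of antiviral effectors and interferon-inducible GTPases, and the others were the chemokines Cxcl10 and Ccl4. Usp18, the protease that removes the ubiquitin-like ISG15 from proteins and damps interferon receptor signalling, had levels of 5.18 and 5.53 in recovery, against 11.73 and 11.74 in 5aza-dC. Its mock levels were 5.48 and 5.80. Both recovery arrays lay in the range of the mock arrays or just below it, far under 5aza-dC, and the difference was -6.38 ± 0.15 (limma, Benjamini-Hochberg adjusted p = 1.13e-06). Rsad2, which codes for the antiviral radical enzyme viperin, had levels of 5.91 and 5.68 in recovery, against 11.94 and 11.9997 in 5aza-dC, with 5.25 and 5.48 in mock. The recovery arrays were slightly above the mock arrays, and the difference to 5aza-dC was -6.18 ± 0.11 (limma, Benjamini-Hochberg adjusted p = 4.29e-07). In the deposited columns the Rsad2 signal was 92.1 in recovery, 3979.0 in 5aza-dC and 93.0 in mock. The intensity that the authors background-subtracted and scaled was 37.9 in recovery, 4025.9 in 5aza-dC and 25.6 in mock.

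Of the 52 measured antiviral effectors, 45 were detected, all 45 of them in 5aza-dC and 29 in recovery. The 16 that were detected in 5aza-dC and not in recovery had little room for a rise. Of the detected members 44 fell and 39 fell at least 2-fold, where 21.0% and 4.36% of all genes did. Ifitm2, named after its values had been seen, rose, by 0.28. The median of the list was -2.44, or -2.36 with 11 genes at their bound, against 0.02 for all genes. The same members stood at a median of 0.11 for recovery minus mock and 2.69 for 5aza-dC minus mock. Mx2, a dynamin-like antiviral GTPase, was detected on neither recovery array (4.44 and 4.38) and on both 5aza-dC arrays (9.86 and 9.86), and was at least 31.5-fold lower. Its mock arrays, at 4.49 and 4.50, did not detect it either.

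The oligoadenylate synthetases make a second messenger that activates RNase L. Oas1g had levels of 4.90 and 4.93 in recovery, against 10.20 and 10.15 in 5aza-dC, a difference of -5.26 ± 0.07 (limma, Benjamini-Hochberg adjusted p = 1.76e-07). Here recovery lay below mock (6.17 and 6.14) as well, and only 1 of the recovery arrays detected the gene. Oasl2 fell by 4.54 ± 0.17 on the log2 scale, with 1 of the recovery arrays detecting it, and Oasl1, which none of them detected, was at least 20.3-fold lower. Members of the Oas1 and Apol9 families are close in sequence, and probes may not separate them. Ifit3, which binds foreign RNA in complex with other IFIT proteins, had levels of 6.19 and 6.27 in recovery, against 11.38 and 11.46 in 5aza-dC, with 5.94 and 6.09 in mock. Its difference was -5.19 ± 0.08 (limma, Benjamini-Hochberg adjusted p = 2.97e-07). Isg15, shown above for its promoter and outside the rule for named genes, had levels of 8.05 and 8.10 in recovery, against 12.42 and 12.32 in 5aza-dC and 8.50 and 8.33 in mock.

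Further effectors with large falls were Apol9a, an apolipoprotein L family member, and Parp14, an ADP-ribosyltransferase. Apol9a had levels of 6.34 and 6.33 in recovery, against 10.84 and 10.78 in 5aza-dC, a difference of -4.48 ± 0.07. Parp14 had levels of 6.10 and 5.56 in recovery, against 10.35 and 10.26 in 5aza-dC, a difference of -4.47 ± 0.18, and its recovery arrays stood further apart than those of Apol9a. Cmpk2, a mitochondrial nucleotide kinase, had levels of 4.30 and 5.06 in recovery, against 9.57 and 9.55 in 5aza-dC, with 4.69 and 4.72 in mock. It was detected on 1 recovery array and not on the other, and the difference was -4.88 ± 0.22 (limma, Benjamini-Hochberg adjusted p = 1.43e-05).

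The interferon-inducible GTPases attack the membranes of compartments that hold pathogens. All 8 detected members fell, 7 of them at least 2-fold, with a median of -3.06, or -2.91 with 2 at their bound. Of the 8, 3 were detected in 5aza-dC and not in recovery, which left them little room for a rise. Irgm2 had levels of 5.20 and 5.33 in recovery, against 10.18 and 10.18 in 5aza-dC, a difference of -4.92 ± 0.08. Its mock arrays did not detect it (4.19 and 4.30), so recovery lay between mock and 5aza-dC, at 1.02 against mock, which passed limma. Igtp, also known as Irgm3, had levels of 5.82 and 5.75 in recovery, against 10.54 and 10.44 in 5aza-dC and differed by -4.71 ± 0.12, while it stood at 0.64 against mock. Among the guanylate-binding proteins, Gbp3 had levels of 5.78 and 5.92 in recovery, against 10.31 and 10.39 in 5aza-dC, a difference of -4.50 ± 0.08, and Gbp2 had levels of 7.41 and 7.33 in recovery, against 11.12 and 11.03 in 5aza-dC, a difference of -3.71 ± 0.11. Gbp3 was lower in recovery than in mock (-0.58), unlike Irgm2 and Igtp. Gbp7 was at least 3.63-fold lower, with no detection in recovery or in mock.

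**Figure D2:**
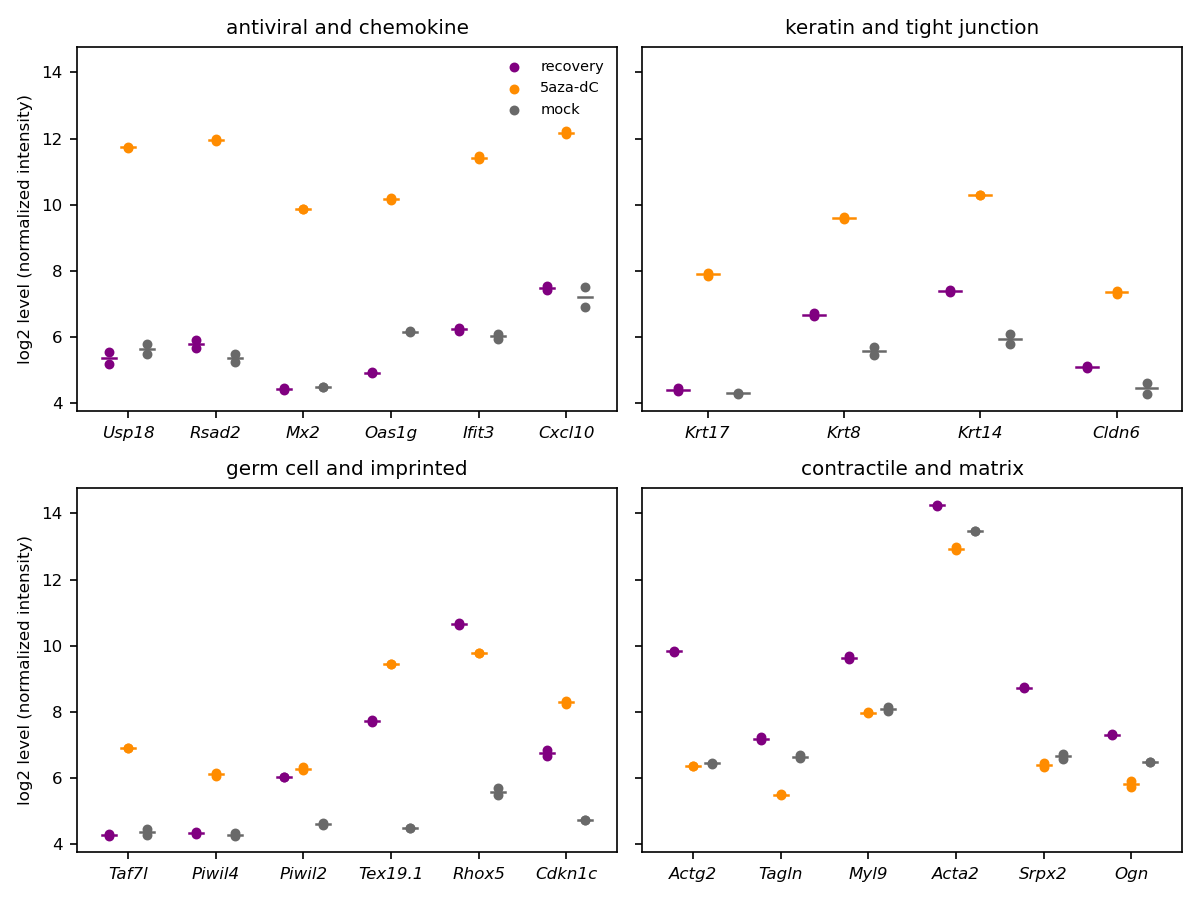
Log2 level of each array (points) and mean of the 2 arrays (bars) for selected named genes, with recovery, 5aza-dC and mock from left to right within each gene. Antiviral genes stand high in 5aza-dC alone, Rhox5 and Tex19.1 stay far above mock in recovery, and Actg2 is high in recovery alone (9.82 and 9.84).

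Of the interferon sensing and signalling genes a part fell. Of 20 detected members 11 fell, 7 at least 2-fold, and 9 did not pass, with a median of -0.42, against 0.62 for 5aza-dC minus mock and 0.18 for recovery minus mock. Of the 20, 5 were detected in 5aza-dC and not in recovery, which left them little room for a rise. Ifnb1, the interferon beta ligand, named after its values had been seen, was at least 1.63-fold lower (limma, Benjamini-Hochberg adjusted p = 0.00143). Its levels were 4.17 and 4.62 in recovery, against 5.46 and 5.72 in 5aza-dC, and neither the recovery nor the mock arrays detected it. Dhx58, a cytosolic RNA sensor of the RIG-I family, had levels of 5.83 and 5.74 in recovery, against 9.14 and 9.12 in 5aza-dC, a difference of -3.35 ± 0.10.

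The transcription factors of the pathway were among those that fell. Irf7, the factor that amplifies interferon production, was detected on both 5aza-dC arrays (6.99 and 7.17) and on neither recovery array (4.30 and 4.15), and was at least 4.58-fold lower. Irf9, the DNA-binding part of the complex that carries the interferon signal, had levels of 6.66 and 6.71 in recovery, against 9.30 and 9.39 in 5aza-dC, a difference of -2.66 ± 0.09. Stat2, its partner, had levels of 5.25 and 4.56 in recovery, against 7.02 and 7.11 in 5aza-dC, a difference of -2.16 ± 0.25, with 1 of the recovery arrays detecting it. Irf1 had levels of 10.35 and 10.35 in recovery, against 11.93 and 11.93 in 5aza-dC, a difference of -1.58 ± 0.07, and its recovery arrays stayed above its mock arrays (10.05 and 10.07).

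Class I antigen presentation shows peptides from inside the cell to T cells. All 20 detected members fell and 16 fell at least 2-fold, with a median of -1.50, against 1.69 for 5aza-dC minus mock and 0.00 for recovery minus mock. Of the 20, 3 were detected in 5aza-dC and not in recovery, which left them little room for a rise. Psmb8, an immunoproteasome subunit, had levels of 8.07 and 7.95 in recovery, against 11.39 and 11.29 in 5aza-dC, a difference of -3.33 ± 0.10 (limma, Benjamini-Hochberg adjusted p = 2.96e-06). Its mock arrays, at 8.79 and 8.56, lay above recovery. Psmb9, its partner subunit, had levels of 4.65 and 5.04 in recovery, against 7.46 and 7.26 in 5aza-dC, a difference of -2.52 ± 0.16, and 1 of the recovery arrays detected it. B2m, the light chain shared by all class I molecules, had levels of 12.15 and 12.17 in recovery, against 13.11 and 13.07 in 5aza-dC and fell by 0.93 ± 0.07 on the log2 scale, under 2-fold.

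The heavy chains and the class I-like genes followed the same direction. H2-T10 had levels of 8.44 and 8.56 in recovery, against 10.99 and 11.12 in 5aza-dC, a difference of -2.55 ± 0.11. H2-T23 had levels of 5.03 and 5.05 in recovery, against 6.95 and 7.003 in 5aza-dC, a difference of -1.94 ± 0.07. H2-Q8 had levels of 5.42 and 5.34 in recovery, against 7.32 and 7.48 in 5aza-dC and was not detected in mock (4.40 and 4.39), so its recovery level lay between the others, at 0.99 against mock. These heavy chain genes are near copies of each other, and a probe may read more than 1 of them.

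Chemokines and cytokines made up the last group of this kind. Of 17 detected members 13 fell, 9 at least 2-fold, and 2 rose, with a median of -1.75, or -1.31 with 2 at their bound. The pair that rose, Cxcl12 (0.46) and Il11 (0.64), was named after the values had been seen. Cxcl10, which draws T cells and NK cells, had levels of 7.55 and 7.42 in recovery, against 12.21 and 12.12 in 5aza-dC, with 7.51 and 6.90 in mock. Its difference was -4.68 ± 0.19, and its recovery arrays fell within the span of the mock arrays or just above it. Ccl4 was at least 17.9-fold lower, with detection in neither recovery nor mock.

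Ccl5, Ccl2 and Cxcl16 came down below mock. Ccl5 had levels of 5.30 and 5.40 in recovery, against 8.77 and 8.93 in 5aza-dC and 6.66 and 6.77 in mock, which gave -3.50 ± 0.09 against 5aza-dC and -1.36 against mock. Ccl2, which draws monocytes, had levels of 5.57 and 5.80 in recovery, against 8.40 and 8.43 in 5aza-dC and 6.54 and 6.71 in mock, which gave -2.73 ± 0.10 and -0.94. Cxcl16 had levels of 6.44 and 6.50 in recovery, against 9.02 and 9.07 in 5aza-dC and 7.07 and 7.06 in mock, which gave -2.58 ± 0.07 and -0.60. All of these differences passed limma. Il15, a cytokine that supports NK and memory T cells, differed by -3.31 ± 0.10 and stayed above mock (0.78).

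**Figure D3:**
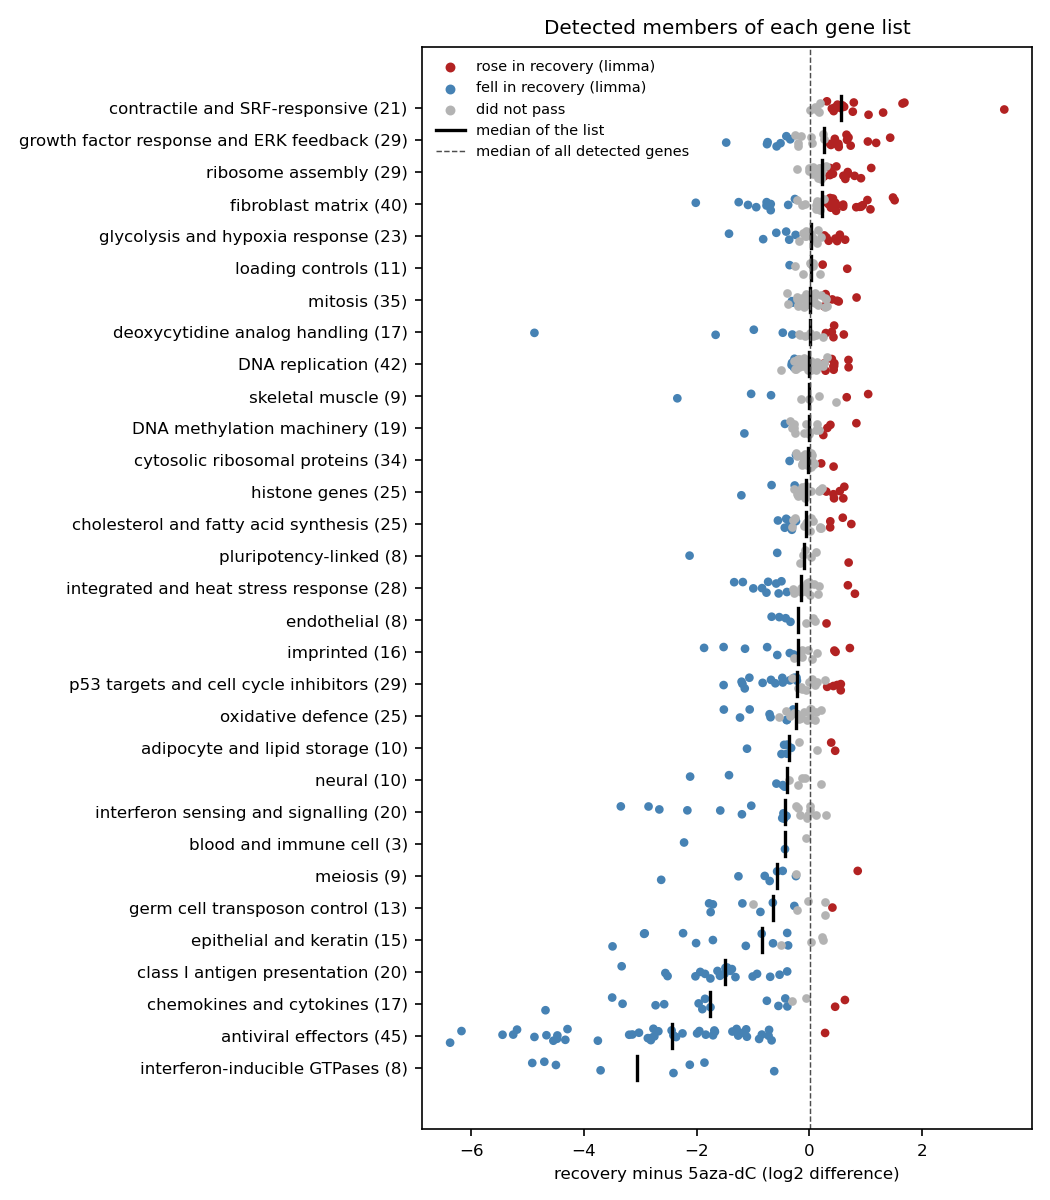
Log2 difference of recovery minus 5aza-dC for the detected members of 31 gene lists (number detected in brackets), coloured by the limma result, with the median of each list (black bar) and of all detected genes (dashed line, 0.02). The lists of interferon-inducible GTPases and antiviral effectors have medians of -3.06 and -2.44, and the contractile list has the highest, 0.56.

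Some germ cell genes fell, and others did not pass or rose. The list of germ cell transposon control, which covers the PIWI, tudor and related genes that silence retrotransposons, had 13 detected members of 31 measured, of which 9 were detected in recovery. Of these 13, 7 fell, 4 at least 2-fold, and Tdrkh, named after its values had been seen, rose by 0.41. Of the 13, 4 were detected in 5aza-dC and not in recovery, which left them little room for a rise. Piwil4 and Tdrd12 of these are among the falls, and Ddx4 and Dazl did not pass. The median was -0.65, or -0.26 with 2 genes at their bound. It was 0.97 for 5aza-dC minus mock and 0.45 for recovery minus mock. Tex19.1, a mammal-specific germ cell gene that restrains retrotransposons in mouse testis and placenta, had levels of 7.70 and 7.75 in recovery, against 9.43 and 9.44 in 5aza-dC. Mock arrays did not detect it (4.48 and 4.49). It fell, with a difference of -1.71 ± 0.07 (limma, Benjamini-Hochberg adjusted p = 9.28e-06), and still stood at 3.24 against mock, next to 4.95 for 5aza-dC. In the deposited columns the Tex19.1 signal was 230.9 in recovery, 742.2 in 5aza-dC and 67.9 in mock.

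Its paralog Tex19.2 had levels of 5.24 and 5.47 in recovery, against 7.08 and 7.13 in 5aza-dC, a difference of -1.75 ± 0.09, and stood at 1.14 against mock. Piwil2, a PIWI protein of the piRNA pathway, had levels of 6.02 and 6.02 in recovery, against 6.23 and 6.33 in 5aza-dC, with 4.65 and 4.57 in mock. That difference, -0.26 ± 0.08, passed limma (Benjamini-Hochberg adjusted p = 0.0305) but was small, so most of the distance to mock (1.41) was still there. Piwil4, another PIWI protein, was detected on neither recovery array (4.36 and 4.30) nor mock array (4.26 and 4.32), and was at least 2.33-fold lower than in 5aza-dC. Tdrd7, a tudor domain protein of germ granules, had levels of 9.41 and 9.38 in recovery, against 10.55 and 10.62 in 5aza-dC, a difference of -1.19 ± 0.09, and stood at 0.45 against mock.

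Dazl, an RNA-binding protein needed for germ cell development, had levels of 4.19 and 6.29 in recovery, against 6.21 and 6.27 in 5aza-dC, with 4.67 and 4.25 in mock. The recovery arrays disagreed, 1 at the level of 5aza-dC and 1 at that of mock, so the difference of -0.996 ± 0.59 did not pass limma (Benjamini-Hochberg adjusted p = 0.21). Without the lower recovery array the difference was 0.05, and without the higher one it was -2.06 and passed limma, so 1 array decides it. Rhox5, a homeobox gene of the X-linked reproductive cluster, went the other way. It had levels of 10.61 and 10.67 in recovery, against 9.77 and 9.78 in 5aza-dC, with 5.49 and 5.68 in mock, and rose by 0.86 ± 0.09 (limma, Benjamini-Hochberg adjusted p = 4.83e-04). It stood at 5.06 against mock in recovery and 4.19 in 5aza-dC.

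The meiosis list held 9 detected members of 38 measured, 4 of them detected in recovery. The other 5 were detected in 5aza-dC and not in recovery, which left them little room for a rise. Of the 9, 7 fell, 2 at least 2-fold, and Rhox5 rose, with a median of -0.57, or -0.23 with 5 genes at their bound. Taf7l, a germ cell subunit of the general transcription factor TFIID, was at least 4.06-fold lower, with 6.91 and 6.91 in 5aza-dC and no detection in recovery or in mock. Rhox9 lies in the same X-linked cluster as Rhox5 and was at least 1.5-fold lower, with no detection in recovery (4.18 and 4.24). It is counted among the 2 by its limma difference of -1.26, though its bound is under 2-fold. The direction of Rhox9 was thus the opposite of that of Rhox5.

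Imprinted genes are expressed from the copy inherited from 1 parent, under control of methylated regions. Of 16 detected members 7 fell, 3 at least 2-fold, and 3 rose, with a median of -0.20. Of all genes 21.0% fell and 21.7% rose. Phlda2, a growth-restraining gene of the placenta, had levels of 5.90 and 5.77 in recovery, against 7.71 and 7.70 in 5aza-dC and 6.07 and 5.74 in mock, a difference of -1.87 ± 0.12 that brought it to the mock level. Cdkn1c, which codes for the cell cycle inhibitor p57, had levels of 6.85 and 6.68 in recovery, against 8.32 and 8.24 in 5aza-dC and 4.74 and 4.74 in mock. It fell by 1.52 ± 0.09 on the log2 scale and still stood at 2.02 against mock. Igf2, a foetal growth factor, was detected on neither recovery array (4.73 and 4.77) and was at least 2.01-fold lower. The members that rose, Dlk1 (0.72), Ube3a (0.47) and Tssc4 (0.45), were named after their values had been seen.

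Of 8 detected pluripotency-linked genes, 2 fell and 1 rose, next to 21.0% fallen and 21.7% risen of all genes. Dppa4, a nuclear protein of early embryos and germ cells, was at least 3.64-fold lower, with 6.82 and 6.68 in 5aza-dC and no detection in recovery or mock. Klf2 had levels of 7.99 and 7.79 in recovery, against 7.15 and 7.22 in 5aza-dC, a rise of 0.70 ± 0.09.

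Most of the detected keratin and junction genes of epithelia fell in these fibroblasts. Of 31 measured genes of the epithelial list, 15 were detected, 13 in 5aza-dC and 6 in recovery, and 11 fell, 7 at least 2-fold. Of the 15, 7 were detected in 5aza-dC and not in recovery, which left them little room for a rise. The median was -0.84, or -0.45 with 7 genes at their bound. Krt8, a simple epithelial keratin, had levels of 6.62 and 6.71 in recovery, against 9.56 and 9.63 in 5aza-dC, with 5.44 and 5.68 in mock, a difference of -2.93 ± 0.10 (limma, Benjamini-Hochberg adjusted p = 5.03e-06). Krt14, a keratin of basal epidermis, had levels of 7.35 and 7.41 in recovery, against 10.30 and 10.31 in 5aza-dC, with 6.08 and 5.79 in mock, a difference of -2.92 ± 0.11. Both stayed above mock in recovery, at 1.10 and 1.45. Krt17 went below detection on both recovery arrays (4.44 and 4.36), as in mock, and was at least 8.06-fold lower. The tight junction gene Cldn6 had levels of 5.13 and 5.07 in recovery, against 7.39 and 7.30 in 5aza-dC, a difference of -2.24 ± 0.12, and Cldn4 was at least 2.64-fold lower. Other epithelial markers stayed below detection in both groups, Epcam at a signal of 51.0 in recovery and 52.8 in 5aza-dC, and Cdh1 at 65.8 and 69.8. The summed signal of the 5 epithelial markers was 372 in recovery, 1184 in 5aza-dC and 352 in mock.

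Most of the detected contractile genes of smooth muscle and other targets of serum response factor rose. Of 21 detected members 16 rose, 5 at least 2-fold, and 0 fell, where 21.7% and 0.868% of all genes rose. The median was 0.56, against -0.46 for 5aza-dC minus mock and 0.02 for recovery minus mock. With arrays put on a common median, where the smallest difference to pass limma was 1.03, 4 of them passed, all upward, and the median stood 0.51 above that of all genes, next to 0.54 in the values used here. Actg2, the enteric smooth muscle actin, rose most of all genes. It had levels of 9.82 and 9.84 in recovery, against 6.36 and 6.36 in 5aza-dC, with 6.43 and 6.46 in mock, so that recovery stood above both other groups, by 3.47 ± 0.07 against 5aza-dC (limma, Benjamini-Hochberg adjusted p = 6.22e-07) and by 3.38 against mock. The deposited Actg2 signal was 844.1 in recovery, 128.3 in 5aza-dC and 146.0 in mock.

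Myl9, a regulatory myosin light chain, had levels of 9.67 and 9.60 in recovery, against 7.996 and 7.96 in 5aza-dC and 8.14 and 8.03 in mock, a rise of 1.66 ± 0.08, and it too stood above mock (1.55). Tagln, the actin-binding protein transgelin, had levels of 7.23 and 7.15 in recovery, against 5.48 and 5.51 in 5aza-dC and 6.68 and 6.60 in mock, a rise of 1.69 ± 0.08. Acta2, the smooth muscle actin that marks myofibroblasts, had levels of 14.23 and 14.27 in recovery, against 12.90 and 12.97 in 5aza-dC and 13.48 and 13.47 in mock, a rise of 1.31 ± 0.07. In Tagln and Acta2 the 5aza-dC arrays lay below mock and the recovery arrays above it. Ccn1, a matrix-associated signalling protein, had levels of 10.90 and 10.86 in recovery, against 9.85 and 9.79 in 5aza-dC, a rise of 1.05 ± 0.07, and stayed below mock (11.48 and 11.44). Srf itself, shown above for its promoter and named after its values had been seen, rose by 0.79.

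The fibroblast matrix list was mixed. Of 40 detected members 19 rose, 4 at least 2-fold, and 10 fell, 3 at least 2-fold, with a median of 0.23, and with arrays put on a common median, where passing took more than 2-fold, 2 rose and 4 fell. Col1a1, a chain of type I collagen, had levels of 10.33 and 10.26 in recovery, against 9.27 and 9.14 in 5aza-dC, a rise of 1.09 ± 0.10. Col6a2, a chain of the microfibrillar collagen VI, had levels of 9.30 and 9.34 in recovery, against 7.86 and 7.74 in 5aza-dC, a rise of 1.52 ± 0.12. The small leucine-rich proteoglycan Ogn had levels of 7.33 and 7.30 in recovery, against 5.74 and 5.91 in 5aza-dC, a rise of 1.49 ± 0.08. These 3 stood above mock in recovery, at 0.45, 0.79 and 0.83. Of 5 detected matrix metalloproteinases 3 fell, and Mmp2 (0.20) and Mmp14 (-0.08), named like Mmp13 after their values had been seen, did not pass. Mmp9, a gelatinase, had levels of 4.95 and 4.79 in recovery, against 6.95 and 6.82 in 5aza-dC, a difference of -2.01 ± 0.09, with 1 of the recovery arrays detecting it. Mmp10, a stromelysin, was at least 1.87-fold lower, and was detected in mock (5.94 and 5.92) but not in recovery (4.46 and 4.62). Mmp13, a collagenase, fell and was at least 1.31-fold lower.

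Growth factor response and ERK feedback genes also moved both ways. Of 29 detected members 14 rose, 3 at least 2-fold, and 7 fell, 1 at least 2-fold. The median was 0.27, with -0.55 for 5aza-dC minus mock and -0.48 for recovery minus mock, and with arrays put on a common median, where passing took more than 2-fold, 1 rose and 1 fell. Egr3, an immediate early transcription factor, had levels of 6.01 and 6.31 in recovery, against 4.67 and 4.77 in 5aza-dC, a rise of 1.44 ± 0.13, and 1 of the 5aza-dC arrays detected it. Trib1, a pseudokinase that promotes breakdown of C/EBP factors, had levels of 6.95 and 6.995 in recovery, against 5.70 and 5.87 in 5aza-dC, a rise of 1.19 ± 0.09. Both stayed below mock (-1.06 and -1.10). Fosl2, an AP-1 subunit, had levels of 9.85 and 9.99 in recovery, against 8.96 and 8.79 in 5aza-dC, a rise of 1.04 ± 0.09. Atf3, a stress-induced transcription factor, had levels of 5.55 and 5.15 in recovery, against 6.83 and 6.81 in 5aza-dC, a difference of -1.47 ± 0.13.

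Part of the ribosome assembly factors rose. Of 29 detected members 13 rose, 1 at least 2-fold, and 0 fell, with a median of 0.24, against -0.71 for 5aza-dC minus mock and -0.40 for recovery minus mock. With arrays put on a common median, where passing took more than 2-fold, 0 of them passed limma, and the median stood 0.23 above that of all genes, next to 0.21 in the values used here. Polr1b, a large subunit of RNA polymerase I, had levels of 8.22 and 8.33 in recovery, against 7.22 and 7.49 in 5aza-dC and 8.83 and 8.71 in mock, a rise of 0.92 ± 0.11 (limma, Benjamini-Hochberg adjusted p = 9.84e-04). Pus7l, a pseudouridine synthase-like gene, had levels of 8.12 and 8.16 in recovery, against 6.94 and 7.14 in 5aza-dC and 9.14 and 9.43 in mock, a rise of 1.10 ± 0.12. In both genes recovery lay between 5aza-dC and mock. Of 34 cytosolic ribosomal proteins, by contrast, 2 rose and 2 fell, with Rpl22 at 0.43 ± 0.07 and Rplp0 at -0.35 ± 0.09, and a median of -0.02. The difference between those lists was not tested.

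Among the 15 largest rises were genes outside the lists. Srpx2, a secreted sushi-repeat protein linked to cell migration, had levels of 8.71 and 8.74 in recovery, against 6.32 and 6.44 in 5aza-dC and 6.73 and 6.57 in mock, a rise of 2.35 ± 0.09 (limma, Benjamini-Hochberg adjusted p = 7.62e-06). Cdh13, a cadherin anchored by a lipid in place of a membrane span, had levels of 8.76 and 8.87 in recovery, against 7.003 and 7.05 in 5aza-dC and 7.59 and 7.50 in mock, a rise of 1.79 ± 0.08. Epb41l4a, a FERM domain protein, had levels of 7.46 and 7.49 in recovery, against 5.74 and 5.94 in 5aza-dC and 4.96 and 5.12 in mock, a rise of 1.64 ± 0.10. Xlr4a, an X-linked gene of a lymphocyte-regulated family, had levels of 6.06 and 6.26 in recovery, against 4.53 and 4.72 in 5aza-dC, a rise of 1.54 ± 0.11. It was not detected in mock (4.23 and 4.13) and on 1 of the 5aza-dC arrays. All 4 stood above mock in recovery, by 2.08, 1.27, 2.43 and 1.98.

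A second kind of rise ended at or below mock. Sema7a, a membrane-anchored semaphorin, had levels of 6.48 and 6.62 in recovery, against 4.998 and 4.85 in 5aza-dC and 8.41 and 8.44 in mock, a rise of 1.62 ± 0.09 that left it at -1.88 against mock. Prkca, a protein kinase C, had levels of 9.21 and 9.27 in recovery, against 7.69 and 7.65 in 5aza-dC and 8.998 and 9.13 in mock, a rise of 1.57 ± 0.08. Mb21d2 had levels of 8.40 and 8.48 in recovery, against 6.69 and 6.64 in 5aza-dC and 8.17 and 8.41 in mock, a rise of 1.78 ± 0.10. Stk39, a kinase that controls ion cotransporters, had levels of 7.48 and 7.69 in recovery, against 6.07 and 6.15 in 5aza-dC and 7.71 and 7.76 in mock, a rise of 1.47 ± 0.09. For Prkca, Mb21d2 and Stk39 the difference between recovery and mock did not pass limma. Man2a1, a Golgi mannosidase, and Gask1b also rose by 1.56 ± 0.07 and 1.65 ± 0.12, with recovery above mock.

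Targets of p53 and inhibitors of cyclin-dependent kinases moved both ways. Of 29 detected members 14 fell, 5 at least 2-fold, and 5 rose, with a median of -0.22. Cdkn1a, which codes for the inhibitor p21, had levels of 6.88 and 6.78 in recovery, against 7.98 and 7.97 in 5aza-dC and 7.68 and 7.75 in mock, a difference of -1.14 ± 0.08. Recovery was thus below mock as well (-0.88). Trp53inp1 differed by -1.20 ± 0.08, Gadd45a, a DNA damage-induced protein, by -1.19 ± 0.12 and the death receptor Fas by -1.06 ± 0.08. In these 3 genes recovery stayed above mock, by 0.37, 0.41 and 0.44.

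Differences of proliferation genes were small. Of 35 mitosis genes 7 rose and 2 fell, with a median of 0.02, and of 42 DNA replication genes 9 rose and 5 fell, with a median of 0.00, none of them at least 2-fold. Nuf2, a kinetochore protein, had levels of 6.41 and 6.14 in recovery, against 5.24 and 5.62 in 5aza-dC, a rise of 0.84 ± 0.14. Bub3, a spindle checkpoint protein, rose by 0.53 ± 0.08. Tk1, the cytosolic thymidine kinase, had levels of 11.44 and 11.51 in recovery, against 10.68 and 10.88 in 5aza-dC, a rise of 0.70 ± 0.11, and Pold2, a subunit of DNA polymerase delta, rose by 0.70 ± 0.10. Histone genes were mixed, with 6 risen and 3 fallen of 25 detected, next to 21.7% risen and 21.0% fallen of all genes. H2bc4 had levels of 5.61 and 6.001 in recovery, against 7.14 and 6.88 in 5aza-dC, a difference of -1.20 ± 0.16.

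The machinery of DNA methylation was close to the level of all genes, with 4 risen and 2 fallen of 19 detected and a median of -0.01. Dnmt3b, a de novo methyltransferase, had levels of 7.37 and 7.22 in recovery, against 6.51 and 6.39 in 5aza-dC and 7.95 and 8.20 in mock. It rose by 0.84 ± 0.11 (limma, Benjamini-Hochberg adjusted p = 0.00137) and stayed below mock (-0.78). Dnmt1, the maintenance methyltransferase, had levels of 8.83 and 8.72 in recovery, against 8.60 and 8.68 in 5aza-dC, and its difference of 0.13 ± 0.13 did not pass limma (Benjamini-Hochberg adjusted p = 0.446) and turned to -0.05 with arrays put on a common median. Uhrf1, which guides Dnmt1 to newly copied DNA, had levels of 10.29 and 10.26 in recovery, against 10.71 and 10.53 in 5aza-dC, and its difference of -0.34 ± 0.13 did not pass either (limma, Benjamini-Hochberg adjusted p = 0.0727). Daxx, a histone H3.3 chaperone, had levels of 8.06 and 7.83 in recovery, against 9.15 and 9.04 in 5aza-dC, a difference of -1.15 ± 0.10.

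Genes of the uptake, activation and breakdown of deoxycytidine analogs had 5 risen and 5 fallen members of 17 detected. Of all genes 21.7% rose and 21.0% fell. Cda, the deaminase that inactivates decitabine, had levels of 5.96 and 5.94 in recovery, against 7.63 and 7.59 in 5aza-dC and 6.09 and 5.66 in mock, a difference of -1.66 ± 0.14 (limma, Benjamini-Hochberg adjusted p = 1.89e-04). Its recovery arrays fell within the span of the mock arrays. Cmpk2, given above among the antiviral genes, is the other member that fell at least 2-fold.

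Stress and metabolic lists showed smaller differences. Of 28 genes of the integrated and heat stress response 10 fell, 2 at least 2-fold, and 2 rose. Nupr1, a stress-induced nuclear protein, had levels of 10.49 and 10.47 in recovery, against 11.66 and 11.66 in 5aza-dC, a difference of -1.18 ± 0.10, and stood above mock (1.05), while Vldlr, a lipoprotein receptor, differed by -1.33 ± 0.12. Of 25 oxidative defence genes 9 fell and 0 rose, with a median of -0.23. Cbr3, a carbonyl reductase, had levels of 8.17 and 8.14 in recovery, against 9.66 and 9.68 in 5aza-dC, a difference of -1.52 ± 0.08. Gsta1, a glutathione transferase, was at least 1.88-fold lower, and the metallothionein Mt2 at least 1.85-fold lower.

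In glycolysis and the hypoxia response 7 of 23 rose and 6 fell, where 21.7% and 21.0% of all genes did. Eno2, the neuronal enolase, had the one difference of at least 2-fold in that list. Its levels were 7.57 and 7.58 in recovery, against 9.05 and 8.96 in 5aza-dC, a difference of -1.42 ± 0.07. Egln3, a prolyl hydroxylase of the hypoxia pathway, fell by 0.82 ± 0.20 on the log2 scale. Of 25 genes of cholesterol and fatty acid synthesis 4 rose and 8 fell, none at least 2-fold, with Elovl6 at 0.75 ± 0.07 and Mvk at 0.60 ± 0.09. Of 10 adipocyte and lipid storage genes 6 fell and 2 rose, with Plin2, a lipid droplet coat protein, at -1.10 ± 0.08 and Cebpb at -0.49 ± 0.08.

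Lists of other cell types had few detected members. Of 10 neural genes 5 fell, and Uchl1, a neuronal deubiquitinase, was at least 3.51-fold lower. Of 9 skeletal muscle genes 3 fell and 2 rose. Ckb, the brain-type creatine kinase, had levels of 6.77 and 6.60 in recovery, against 9.04 and 9.02 in 5aza-dC, a difference of -2.34 ± 0.11, and Tnnt1, a slow troponin T, differed by -1.03 ± 0.08, while Acta1, skeletal actin, rose by 1.05 ± 0.09. Of 21 measured blood and immune genes 3 were detected and 2 fell, with Laptm5 at least 3.07-fold lower and Coro1a at -0.43 ± 0.11. Of 8 endothelial genes 4 fell and 1 rose, with Plvap at least 1.46-fold lower and Esam at least 1.18-fold lower. The defining markers of blood, muscle and neural cells were below detection in recovery and in 5aza-dC, and the part of other cells in these values was not tested. Of 11 loading controls 2 rose and 1 fell, next to 21.7% risen and 21.0% fallen of all genes. Tfrc, the transferrin receptor, stood at 0.68 ± 0.09, and the median of the list was 0.04.

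Promoter windows, running from 250 bases before to 50 after each annotated start, were found for 7307 of the 8984 detected genes. The interferon response element core occurred in 5 of 59 genes called higher (8.47%), in 47 of 288 genes called lower (16.3%) and in 277 of all 7307 (3.79%), and in 3.44% of all 32851 windows. It was found in 14 of 33 antiviral effectors and in 7 of 7 GTPases. The CArG box occurred in 6 of 59 genes called higher (10.2%), in 4 of 288 called lower (1.39%) and in 1.64% of all detected genes and 1.63% of all windows, and 5 of 18 contractile genes held it. Of the other motifs, E2F (GGCGGGAA), the E-box (CACGTG) and CRE (TGACGTCA), none occurred in a larger share of genes called higher than of all detected genes. E2F occurred in 5.08% of genes called higher, 4.51% called lower and 5.13% of all. CpG was sparser in the promoters of called genes, with a median observed over expected ratio of 0.64 in genes called higher, 0.47 in genes called lower and 0.77 in all detected genes. Both strands were searched, and a match describes the letters of the window, not a site in use.

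**Figure D4:**
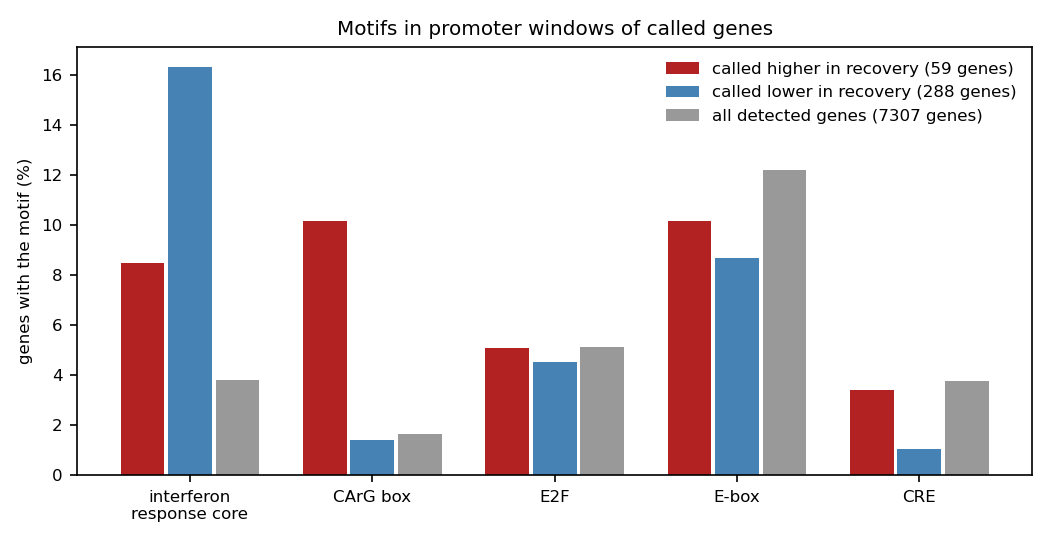
Share of genes (%) with each motif in the promoter window, for genes called higher in recovery (red, 59 genes), genes called lower (blue, 288) and all detected genes (grey, 7307). The interferon response core is most frequent among genes called lower (16.3%) and the CArG box among genes called higher (10.2%).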

How the data were processed

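Gene expression was measured in NIH/3T3 cells on Illumina bead arrays, with 1 deposited column per group. One deposited table holds signal intensity before normalization and, beside it, the detection p-value of each probe, per the file headers. The other holds intensity that the authors background-subtracted and scaled, as its deposited values show (40.2%, 38.5% and 39.5% below 0 in recovery, 5aza-dC and mock). The software for these steps was not given in the sources used here. There were 0 columns of other samples.

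The deposited detection p-values lie on steps of 0.5 of a negative control, out of 936, which means that each column averages 2 arrays. Both arrays were solved from the 2 tables, with a misfit SD of 9.48e-04 in recovery, 8.82e-04 in 5aza-dC and 9.81e-04 in mock, against 0.0295, 0.0288 and 0.0381 for 1 array. The array values were background-corrected (normexp, offset 16), quantile normalized, put on a log2 scale and fitted with limma 3.58.1 in R 4.3.3 over all 6 arrays (3 residual and 3.79 prior degrees of freedom), with Benjamini-Hochberg adjustment over 8984 genes. A gene needed a detection p-value below 0.01 in at least 1 group and was read from its probe with the highest mean. Of 45281 probes, 34885 had 1 gene symbol, 18 several and 10378 none, and 0 were renamed through the reference table. Bounds used the lowest level among probes with a detection p-value below 0.01 on each array, from 4.66 to 4.95 on the log2 scale. Precision is limited by the number of arrays (median SE 0.09).

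Tested on simulated data, solving returned scales of 1.24649 and 1.06218 for recovery against true ones of 1.24647 and 1.0622. For recovery minus 5aza-dC over 8984 genes, limma passed 100%, 94%, 92% and 96% of genes given log2 changes of -2, -1, 1 and 2, and 0.114% of unchanged genes.

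The comparison and the 31 gene lists were chosen with earlier results of these data known, so lists are described by counts and medians without a test. Named genes are the 15 largest called differences each way, up to 5 called members of each list (or the 2 largest where fewer than 2 were called) and a fixed set of germ cell, imprinted, methylation and interferon genes, where detected; clone and model names were left out. Alternatives covered offset, background correction, scaling, detection filter, probe choice, arrays in the fit, variance prior, minimum fold, the deposited columns, the authors' scaled intensity (pseudocount 16) and each array left out. Promoters came from RefSeq (GRCm38.p6), matched by gene identifier and credited to that build only, since no build of the arrays was used here.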

Additional observations from a re-analysis of the deposited data

Results flagged for a closer look

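Probes that the annotation used here pairs with no gene symbol were left out of the gene comparisons and were fitted in the same way. Of 2100 such probes detected in at least 1 group, 76 were called lower in recovery and 26 called higher (4.86% in either direction). Among named genes 4.36% were called lower and 0.868% higher, so the share was about that of named genes. The probes are given because they had been left out, not for their share. ILMN_2433990 had a deposited signal of 80.1 in recovery, 2586 in 5aza-dC and 92.9 in mock, a log2 difference of -5.97 ± 0.10 for recovery minus 5aza-dC. ILMN_1246194 had 69.7 in recovery, 808 in 5aza-dC and 75.7 in mock, a difference of -4.78 ± 0.20. ILMN_1231168 had 158 in recovery, 74.7 in 5aza-dC and 88.7 in mock, a difference of 2.11 ± 0.08. ILMN_2652458 had 364 in recovery, 157 in 5aza-dC and 172 in mock, a difference of 1.70 ± 0.14. These 4 are the largest differences each way.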

How the results depend on the processing

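The count of genes called higher (78) became 34 at offset 50, 30 with no background correction, 28 with arrays put on a common median, 38 when the probes of a gene were averaged and 1942 with no minimum fold. The count called lower (392) became 207 at offset 50, 187 with no background correction and 264 when the probes of a gene were averaged. It became 218 among genes detected in all 3 groups and 1884 with no minimum fold. In the last 2 of these the construction shows the cause, since fewer genes were tested or no fold was asked. For the others the cause was not tested. Of the 470 called genes, 241 were still called at offset 50, 217 with no background correction and 302 with probes averaged. Leaving out each array in turn gave 77 to 85 called higher and 386 to 411 called lower. Of the 114 named genes 90 were called, and 58 were among genes detected in all 3 groups, with 87 to 90 when an array was left out. Among named genes that had not passed limma, Dnmt1 turned to -0.0507 with arrays put on a common median. Dazl (-0.996) turned to 0.0544 without recovery replicate 1, and passed limma at -2.0604 without recovery replicate 2 (adjusted p = 0.000841) and at -1.07 on a common median (adjusted p = 0.0357), where all genes share an SE of 0.34. For the same reason 516 genes passed limma on a common median, against 3840, and 26 named genes no longer passed limma. The authors' scaled intensity gave 55 genes at least 2-fold higher and 500 lower, without a test. On a common median, 28 of 31 lists kept their median on the same side of the median of all genes, and the exceptions (mitosis, deoxycytidine analog handling and cytosolic ribosomal proteins) lay close to it. The size of list medians was less stable. Counted as moved when shifted beyond their SD over pairs of arrays, 29 of 31 moved on a common median. The number was 22 with the authors' scaled intensity, 21 with no detection filter, 19 with probes averaged and 18 with no background correction. It was 7 or 8 when an array was left out. No paired analysis was possible because the labels give no replicate numbers. Signal over background limits the low genes: 139 of the genes called lower were not detected in recovery, and their differences depend on the offset.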

Other observations

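The groups below were put together after the values had been seen, so their counts describe these arrays only. Of all genes 21.0% fell and 4.36% fell at least 2-fold, while 21.7% rose and 0.868% rose at least 2-fold. Lysosomal proteins, the enzymes, carriers and membrane proteins of the compartment that degrades cell material, were mostly lower in recovery. Of 36 detected members 26 fell, 9 at least 2-fold, and 1 rose, with a median of -0.45, beside 0.53 for 5aza-dC minus mock and 0.22 for recovery minus mock. Ctsh, a cathepsin, had log2 levels of 7.50 and 7.70 in recovery, against 9.36 and 9.37 in 5aza-dC, a difference of -1.76 ± 0.12. Grn, the precursor of granulins, had levels of 10.32 and 10.30 in recovery, against 11.59 and 11.54 in 5aza-dC, a difference of -1.26 ± 0.07. Npc2, a cholesterol carrier, had levels of 4.91 and 5.16 in recovery, against 5.995 and 6.09 in 5aza-dC, a difference of -1.01 ± 0.12. Glutathione transferases, which couple glutathione to reactive compounds, had 15 fallen members of 21, 7 at least 2-fold, and 1 risen, with a median of -0.46. No recovery array detected Gsta1 and Gstt4, which are among these 7, and their bounds were 1.88-fold and 1.36-fold. The falls of Gstk1 and Gstm7 were bounds as well, of 1.57-fold and 1.11-fold. Mgst1, a microsomal member, had levels of 7.60 and 7.67 in recovery, against 9.30 and 9.26 in 5aza-dC, a difference of -1.64 ± 0.10, while Mgst3 had levels of 9.37 and 9.35 in recovery, against 8.23 and 8.26 in 5aza-dC, a difference of 1.12 ± 0.07.

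All 3 detected proliferin genes, which code for prolactin family hormones found in growing fibroblasts of mouse, rose at least 2-fold. Prl2c2 had levels of 10.18 and 10.24 in recovery, against 8.98 and 9.09 in 5aza-dC, Prl2c3 11.17 and 11.20 in recovery, against 9.93 and 9.93 in 5aza-dC and Prl2c4 10.59 and 10.47 in recovery, against 9.42 and 9.36 in 5aza-dC. Their median was 1.17 for recovery minus 5aza-dC, -1.04 for 5aza-dC minus mock and 0.14 for recovery minus mock. These genes are near copies of each other, and the probes may read the same transcripts.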
